A study of Mus musculus with 5 samples.

Results

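Neutrophils, the short-lived granulocytes that leave the blood first at a site of damage, were picked out of 5 single-cell libraries of mouse cortex by their RNA. The cells were chosen by measured values: a cell barcode counted as a neutrophil when S100a8 and S100a9 together made up at least 1% of its unique molecular identifiers (UMIs), when at least 1 of Retnlg, Csf3r, Cxcr2, Mmp9 and Il1r2 had a UMI, and when C1qa and Cd3e had none. Barcodes under 500 UMIs, under 200 genes or over 20% mitochondrial UMIs were left out first. In all, 413 of 58411 barcodes that passed these filters were neutrophils by this rule, out of 60574 barcodes in the files. They were 4 of 11525 in the sham library and 128 of 12705, 227 of 9877, 22 of 12358 and 32 of 11946 at days 1, 3, 7 and 14.

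The libraries were made from C57BL/6J mice, 1 from the cortex of sham animals and 1 from each of days 1, 3, 7 and 14 of traumatic brain injury (TBI). No age, sex, injury device or number of animals is given for a library. Tissue was digested with papain and DNase and cleared on a Percoll gradient before loading on the 10x Genomics 3′ v3 chemistry. With a single library in each group nothing was replicated or tested, every difference is between libraries, and all intervals are 95% intervals for counting error alone.

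Neutrophils are made in bone marrow, where granule proteins are laid down in waves: primary granules with myeloperoxidase and elastase in the earliest precursors, secondary granules with lactoferrin and cathelicidin later, and gelatinase granules last. The calcium-binding pair S100a8 and S100a9 (calprotectin) fills the cytosol, and the receptors Csf3r and Cxcr2 govern survival and release into blood. In injured brain neutrophils are known for early entry through leaky vessels and for release of interleukin 1 beta, chemokines and proteases.

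The label was checked against markers, some of which the rule itself used. All 12 genes of a neutrophil marker list had UMIs in the neutrophils of sham, day 1 and day 3, and 11 of 12 at days 7 and 14, where Ly6g, the surface antigen used to sort mouse neutrophils, was at 0. Ly6g had 3, 6 and 7 UMIs in sham, day 1 and day 3. The 8 basophil and mast cell markers were at 0 in the neutrophils of every library. Eosinophil markers, a list of 8, were not absent, although the peroxidase gene Epx was at 0 throughout. The list had 6, 7, 5 and 10 UMIs in neutrophils at days 1, 3, 7 and 14, and all those of days 7 and 14 were of Siglecf. In each injured library its sum was higher in neutrophils (24.2 to 145 CPM) than in the other barcodes (3.29 to 17.3 CPM). In sham it was at 0 against 13.1 CPM. T and NK cell markers had at most 3 UMIs in a library. Monocyte markers were not absent. A list of 12, Chil3 among them, summed to 804 CPM in day 1 and 5898 CPM in day 3 neutrophils, with a UMI in 202 of 227 at day 3. Barcodes taken as monocytes for their Ccr2 and Ly6c2 UMIs held 11535 and 7230 CPM, and all other barcodes 2661 and 1704 CPM. RNA of brain cells was measurable in neutrophil barcodes, where 10 astrocyte markers summed to 9720.0 CPM at day 1 against 3117 at day 3, and 8 oligodendrocyte markers to 3377 against 305. In the other barcodes those sums were 13189 and 10865 for astrocytes and 11248 and 1766 for oligodendrocytes.

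Neutrophils were small in RNA. Their median was 653.5 UMIs in sham, 900.0 at day 1, 958 at day 3, 2041.5 at day 7 and 2199 at day 14, against 774, 1765, 3307, 7289 and 8759.5 in the other barcodes. Summed over neutrophils the libraries held 2662, 148046, 288722, 52631 and 69073 UMIs, and a single UMI came to 376 CPM in sham but 3.46 CPM at day 3. Every sham value rests on 4 barcodes. The most abundant genes of neutrophils over days 1 and 3, besides mitochondrial and ribosomal protein genes, were Malat1, S100a9, S100a8, Fth1, Cxcl2, Tmsb4x, Actb, Il1b, Srgn, Fau, Mt1, Ftl1, Lcn2, Dusp1 and Junb. Against the other barcodes of day 3 the highest ratios belonged to Ngp, Camp, Retnlg, S100a9, S100a8, Stfa2l1, Wfdc21, Cxcr2, Mmp9, Asprv1, Hdc and Trem1, which follows in part from the rule. A doublet caller marked 12 of the 128 day 1 neutrophils, 3 of 227 at day 3 and 0 in the other libraries. Any pair of libraries shared 27 to 59 barcode sequences, and none of these was a neutrophil in both.

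The share of neutrophils among kept barcodes was highest at day 3. It was 0.0347% in sham (exact binomial interval 0.00946 to 0.0888), 1.01% (0.841 to 1.20) at day 1 and 2.30% (2.01 to 2.61) at day 3. Later it was 0.178% (0.112 to 0.269) at day 7 and 0.268% (0.183 to 0.378) at day 14. The intervals of sham, day 1 and day 3 did not overlap each other or those of the later days, while those of days 7 and 14 overlapped. A share cannot tell more neutrophils from fewer other cells recovered. The shares count barcodes that cleared the filter on UMIs, and 60.2% of day 1 and 54.6% of day 3 neutrophils held under 1000 UMIs. With that floor the shares were 0.456% at day 1 and 1.13% at day 3.

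**Figure D1:**
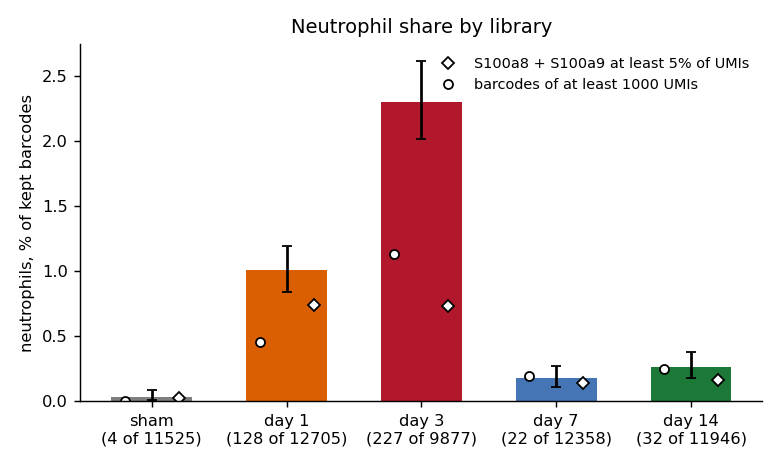
Neutrophil share of kept barcodes (percent, linear axis) in each library, with exact binomial 95% intervals as lines, barcode counts under each bar, and the share under a stricter rule on S100a8 and S100a9 (diamonds) or on UMIs (circles). The day 3 bar is the tallest at 2.30%, and under the stricter S100 rule days 1 and 3 stand at 0.740% and 0.729%.

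S100a8 and S100a9 encode the subunits of calprotectin, a metal-binding protein that neutrophils carry in bulk, and lie close to each other on opposite strands (GRCm38; S100a8 at chr3:90668978-90670035, plus strand; S100a9 at chr3:90692632-90695721, minus strand). Their levels chose the cells, so they are described only. The median neutrophil gave them 23.2% of its UMIs in sham, 11.0% at day 1, 3.40% at day 3, 6.80% at day 7 and 7.06% at day 14. The day 3 median was the lowest of the 5 libraries. At least 10% of UMIs went to the pair in 71 of 128 day 1 neutrophils (55.5%) and in 29 of 227 at day 3 (12.8%). UMIs of this 3′ chemistry count molecules and do not scale with transcript length, so the subunits can be set side by side. There were 0.720 S100a8 UMIs (0.698 to 0.742) for each S100a9 UMI at day 1 and 0.663 (0.624 to 0.704) at day 7. Day 3 gave 1.04 (1.01 to 1.07) and day 14 gave 1.12 (1.07 to 1.17). Of single neutrophils, 23 of 128 at day 1 and 108 of 227 at day 3 held more S100a8 than S100a9. At days 7 and 14 these were 2 of 22 and 12 of 32. The summed ratios of days 3 and 14 were thus above 1 although most cells did not hold more S100a8.

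**Figure D2:**
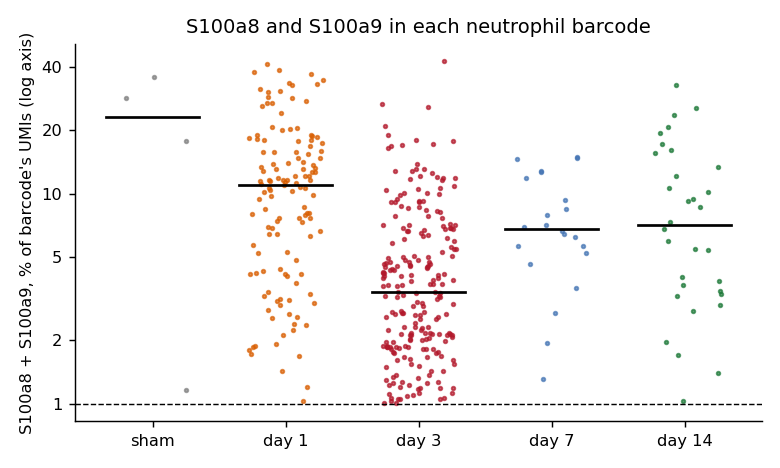
Share of each neutrophil barcode's UMIs from S100a8 and S100a9 (percent, log axis), 1 point per barcode, with the library median as a black line and the 1% threshold dashed. Day 3 points crowd toward the threshold, with 61 of 227 under 2%, against 9 of 128 at day 1.

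The threshold therefore cut through the day 3 cells more than the day 1 cells. At day 3, 20 neutrophils lay between 1% and 1.25% and 13 other barcodes with at least 1 of the 5 genes and no C1qa or Cd3e lay between 0.8% and 1%. At day 1 these numbers were 2 and 3. Just inside the line at day 3, Cxcl2 stood at 6947 CPM, Il1b at 4889 and Il1r2 at 1858, and just outside at 8675, 3091 and 1396. Csf3r (543 and 449 CPM) and Lcn2 (2802 and 2792 CPM) were also close. Retnlg, Cxcr2 and Mmp9 were at 629, 229 and 486 CPM inside but 99.7, 49.9 and 150 outside. Apoe and Csf1r, both markers of microglia and macrophages, were at 5261 and 85.8 CPM inside and higher outside, at 7279 and 150. Barcodes on both sides needed 1 of the 5 genes, Il1r2 among them. A rule of at least 5% gave 94 neutrophils at day 1 (0.740%) and 72 at day 3 (0.729%), so under that rule day 3 no longer stood above day 1. A rule of at least 0.5% gave 1.06% and 2.89%.

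Among the other genes of the rule, the resistin-like gene Retnlg, the granulocyte colony-stimulating factor receptor Csf3r and the chemokine receptor Cxcr2 mark mature blood neutrophils. A barcode could enter through any of these or Mmp9, so the levels that follow are in part set by the rule. They are given as a description. Csf3r stood at 1127 CPM in sham, 1310.4 at day 1, 481 at day 3, 1881 at day 7 and 1375 at day 14. The day 3 value lay below all 3 other injured libraries with no overlap of intervals. Cxcr2, the receptor for the CXCL chemokines that draw neutrophils out of blood (chr1:74153989-74161246, plus strand), stood at 1127 CPM in sham, 1182 at day 1, 398 at day 3, 988 at day 7 and 695 at day 14. Here too the day 3 value was the lowest, and its interval met no other injured library's. Mmp9, the gelatinase of tertiary granules, was at 2254 CPM in sham, 919 at day 1, 689 at day 3, 836 at day 7 and 1288 at day 14, with overlapping intervals at days 1, 3 and 7 and the day 14 interval above that of day 3. Retnlg had 16529 CPM in sham, 2688 at day 1, 2542 at day 3, 3173 at day 7 and 3156 at day 14. Its injured libraries differed little in sum, but its UMIs were uneven over cells. A UMI was found in 63 of 128 neutrophils at day 1 and 74 of 227 at day 3, and at day 3 neutrophils with at least 10% S100 held 10979 CPM against 422 CPM in those under 2%.

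Il1r2 encodes a decoy receptor that binds interleukin 1 without signalling (chr1:40074079-40125231, plus strand), and it went the other way. It stood at 376 CPM in sham, 1108 at day 1, 3131 at day 3, 950.0 at day 7 and 637 at day 14. Day 3 was above every other injured library, and sham, with 1 UMI, cannot be placed. It had a UMI in 76 of 128 neutrophils at day 1 and 208 of 227 at day 3. With every cell thinned to 500 UMIs the shares were 38.3% (29.8 to 47.3) and 76.7% (70.6 to 82.0), against 0.254% and 2.15% of all other barcodes, most of them brain cells that should lack the gene (median 1765 and 3307 UMIs before thinning). Il1r2 was one of the genes through which a barcode could enter, so these shares and levels are in part set by the rule and are given as a description.

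**Figure D3:**
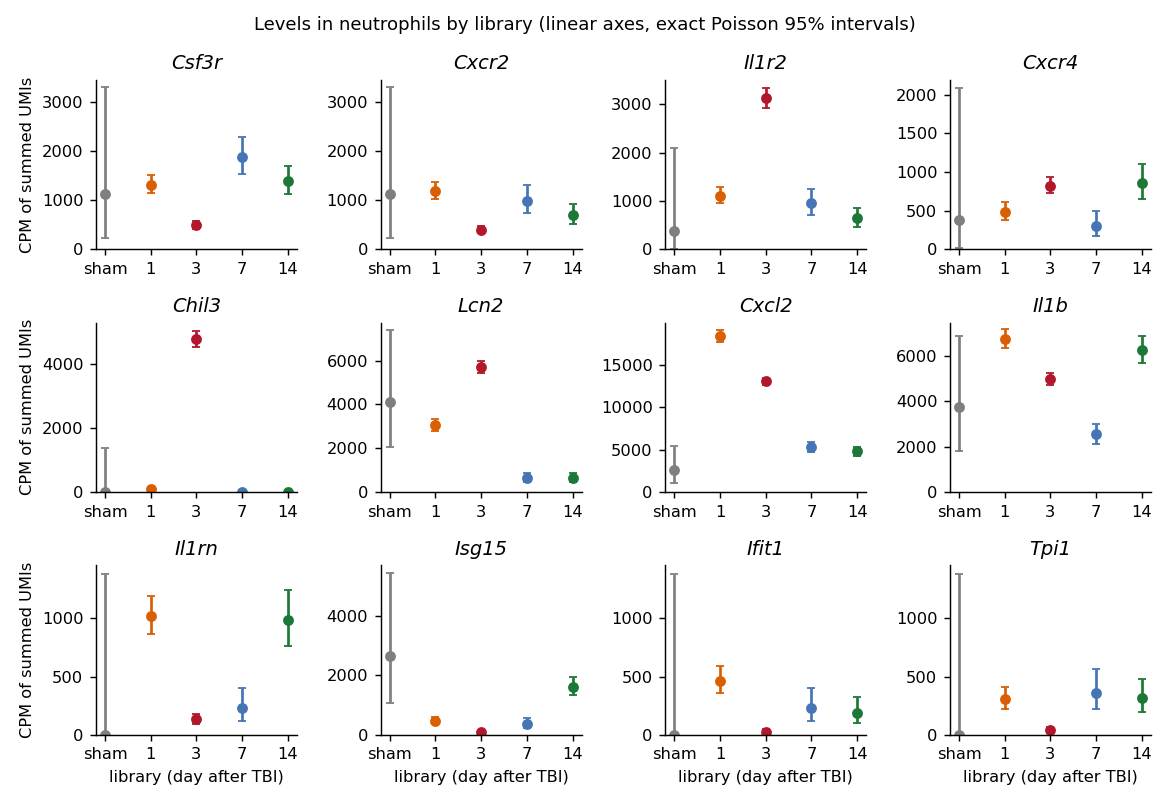
Level in neutrophils (CPM of UMIs summed over the library's neutrophils, linear axes from 0) of 12 genes in each library, with exact Poisson 95% intervals. Day 3 is the highest injured library for Il1r2, Chil3 and Lcn2 and the lowest for Csf3r, Cxcr2, Il1rn, Isg15, Ifit1 and Tpi1, and the wide sham intervals come from 4 barcodes. Il1r2, Csf3r and Cxcr2 were genes of the rule.

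Days 1 and 3 each had over 50 neutrophils and were set against each other gene by gene. Of 3010 genes with a mean of at least 50 CPM and at least 20 UMIs, 527 (17.5%) were at least 2-fold higher at day 3 and 406 (13.5%) at least 2-fold lower, and the median log2 ratio was 0.12. The interval lay wholly past 2-fold for 83 and 133 of them. The percentages of all genes are the background for the list counts that follow. Of 25 measured genes of a neutrophil identity list, which holds the rule genes, Il1r2 and Mmp8 were at least 2-fold higher and 6 lower (S100a9, Csf3r, Cxcr2, Stfa2l1, Il1f9 and Acod1), with a median log2 ratio of -0.44, and nothing is read from it because the rule chose cells on some of these genes. By the naming rule the 12 largest ratios upward belonged to Klhl6, Ngp, Chil3, Saa3, Trp53inp1, Pik3ip1, Ecm1, Mrpl57, Fn1, Ptpn22, Fkbp5 and Camp. Among the 12 largest downward were those of Mag, Tm4sf1, Ptx3, Hbegf, Ifit1, Ifit3, Rsad2, Hspb1, Cldn11, Trf and Ero1l.

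Several of the upward genes were spread over many day 3 neutrophils. Klhl6, an adaptor of a ubiquitin ligase studied mainly in B cells, had 0 CPM in sham, 13.5 at day 1, 1036 at day 3, 76.0 at day 7 and 29.0 at day 14. It had a UMI in 139 of 227 day 3 neutrophils and in 2 of 128 at day 1. Trp53inp1, a p53 target linked to autophagy, stood at 0 CPM in sham, 13.5 at day 1, 506 at day 3, 57.0 at day 7 and 130.3 at day 14, with a UMI in 95 day 3 cells. Pik3ip1, an inhibitor of phosphoinositide 3-kinase, stood at 6.75 CPM at day 1 and 229 at day 3, a log2 ratio of 5.08 (interval 2.55 to 10.41). Fkbp5, a chaperone and a classic target of glucocorticoids, stood at 27.0 CPM at day 1 and 305 at day 3, a log2 ratio of 3.50 (interval 2.09 to 5.40). In the other barcodes of the same libraries the log2 ratios of these 4 genes were 0.98, 1.80, 2.16 and 1.76, so that each was also higher at day 3 outside neutrophils. The ratios there were smaller, which follows in part from naming genes by their ratio in neutrophils. The phosphatase gene Ptpn22 had 0 UMIs at day 1 and 82 in 58 cells at day 3. Its log2 ratio, set against the floor of 3 UMIs, was 3.81 in neutrophils and a larger 4.13 in the other barcodes.

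Others sat in few cells. At day 3 the 5 richest neutrophils held 98.8% of the UMIs of the matrix gene Fn1, 90.1% of those of the acute phase gene Saa3 and 99.3% of those of Ngp. Downward, the myelin genes Mag and Cldn11 and the iron carrier gene Trf are genes of oligodendrocytes, and in the other barcodes their log2 ratios were -2.40, -2.37 and -1.73, beside -6.13, -3.74 and -3.62 in neutrophils. They were lower at day 3 in both. The larger fall in neutrophils follows in part from naming genes by their ratio in neutrophils. Tm4sf1, Ptx3, Hbegf and Hspb1 were each found in at most 14 day 1 neutrophils. What part brain cell RNA has in them was not tested.

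Granule genes came next in order of the neutrophil's life. Of the 8 primary granule genes, Mpo (myeloperoxidase) and Elane (neutrophil elastase) were at 0 UMIs in the neutrophils of all 5 libraries, where the 3 UMIs taken as the limit for a count of 0 come to 10.4 CPM at day 3. Only Srgn, the proteoglycan that packs granules, and Ctsc, a protease that activates granule enzymes, were measured, and neither was past 2-fold (median log2 ratio -0.54). Of the 10 secondary granule genes 8 were measured, with a median log2 ratio of 0.99 against 1.09 for the same genes in the other barcodes. At least 2-fold higher at day 3 were 4 of them (Camp, Ngp, Chil3 and Mmp8), where 17.5% of all genes were, and 0 were at least 2-fold lower. These 4 genes did not share a pattern over cells. Camp (cathelicidin), Ngp and the unmeasured Ltf (lactoferrin) together had UMIs in 8 of 227 day 3 neutrophils, 98.6% of them in 5 cells, and in 2 of 128 at day 1. The 8 cells had a median of 17.8% S100 UMIs against 3.35% in the rest. Of dividing precursor genes 3 of 10 were measured, 2 of them (Stmn1 and Tuba1b) at least 2-fold lower with a median of -1.18, which turned to 0.036 among cells with at least 5% S100, and Mki67, the proliferation antigen, had 0 UMIs at day 1 and 3 at day 3.

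Chil3, a chitinase-like protein of secondary granules that monocytes and macrophages also make (chr3:106147554-106167564, minus strand), was widespread by contrast. It stood at 0 CPM in sham, 101 at day 1, 4787 at day 3, 0 at day 7 and 0 at day 14. Only day 3 was high, with a log2 ratio over day 1 of 5.56 (interval 4.84 to 6.40). It had a UMI in 197 of 227 day 3 neutrophils and 7 of 128 at day 1, and in 0 of 22 and 0 of 32 at days 7 and 14. After thinning the shares at days 1 and 3 were 3.91% (1.28 to 8.88) and 74.9% (68.7 to 80.4), against 0.0716% and 3.69% of all other barcodes. It was also higher at day 3 outside neutrophils, at 3.73 and 132 CPM, and barcodes with Ccr2 and Ly6c2 UMIs, taken as monocytes, held 1730.2 CPM (12 barcodes) and 2497 CPM (45 barcodes). The neutrophil level at day 3 was above that of the monocytes. The 11 other monocyte markers summed to 702 CPM in day 1 and 1112 CPM in day 3 neutrophils, with a UMI in 46 of 128 and 77 of 227, and the monocyte receptor gene Ccr2 had 0 and 5 UMIs. These markers went with Chil3 within day 3. They summed to 1215 CPM (315 UMIs) in the 197 cells with a Chil3 UMI and to 204 CPM (6 UMIs) in the 30 without. Of the 11, 9 were higher in the former, 1 was lower and 1 was at 0 in both. A single UMI in the 30 cells came to 34.0 CPM, so for markers of few UMIs the direction is uncertain. The widest gaps were Plac8, at 409 against 68.1 CPM, and Fn1, at 312 against 34.0 CPM, with 81 Fn1 UMIs in 5 cells. At day 1 the sums went the other way, at 326 CPM (3 UMIs) in the 7 cells with Chil3 and 727 CPM (101 UMIs) in the 121 without. The part of monocyte RNA in the Chil3 level was not tested.

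Lcn2, which encodes the iron-sequestering lipocalin 2, stood at 4132 CPM in sham, 3039.6 at day 1, 5704 at day 3, 627 at day 7 and 651 at day 14. The level was above 3000 CPM at days 1 and 3 and under 700 CPM at days 7 and 14. Its day 3 over day 1 log2 ratio of 0.91 (interval 0.76 to 1.06) did not reach 2-fold, while it was -0.42 in the other barcodes. Mmp8, the neutrophil collagenase, stood at 229.7 CPM at day 1 and 485 at day 3, a log2 ratio of 1.08 that ranged from 0.43 to 2.03 over the alternative settings. Of 9 measured genes of tertiary granules and secretory vesicles, the protease Adam8 and the formyl peptide receptors Fpr1 and Fpr2 were at least 2-fold lower at day 3. Of all genes 13.5% were. In this list 0 were at least 2-fold higher. All 7 genes of the NADPH oxidase, the enzyme of the oxidative burst, were measured and 0 were past 2-fold. The medians of these lists, -0.24 and -0.20, turned to 0.02 and 0.08 among neutrophils with at least 1000 UMIs.

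Interferon response genes were the list furthest from the background. Of 18 measured genes 17 were at least 2-fold lower at day 3 (13.5% of all genes were) and 0 at least 2-fold higher, with a median log2 ratio of -2.42, against -0.13 for the same genes in the other barcodes. The exception was Ifitm1, at 2391 CPM at day 1 and 2019 at day 3. Isg15, a ubiquitin-like modifier, stood at 2629.6 CPM in sham, 459 at day 1, 79.7 at day 3, 361 at day 7 and 1622 at day 14. Day 14 was the highest injured library and day 3 the lowest. Rsad2, the antiviral protein viperin, stood at 751 CPM in sham, 520.1 at day 1, 31.2 at day 3, 285 at day 7 and 738 at day 14, with day 3 again the lowest and days 1 and 14 overlapping. Ifit1, which binds foreign RNA, stood at 0 CPM in sham, 466 at day 1, 24.2 at day 3, 228 at day 7 and 188 at day 14. Day 3 was lowest again, and days 7 and 14 overlapped.

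The interferon UMIs were uneven over cells. For a set of 8 of these genes (Isg15, Ifit1, Ifit2, Ifit3, Rsad2, Oasl1, Cmpk2 and Usp18), 62 of 128 day 1 neutrophils had a UMI, and 28 had 3 or more. At day 3 these numbers were 36 of 227 and 6. The 5 richest cells held 48.5% of the set's UMIs at day 1, 32.8% at day 3, 84.4% at day 7 and 77.4% at day 14. A minority of cells thus carried most of these UMIs in each injured library. The 5 cells were a larger part of the 22 and 32 neutrophils at days 7 and 14. Their shares there cannot be set against those of days 1 and 3. Neutrophils with a UMI of the set were deeper, with medians of 1003.5 UMIs against 788 at day 1. After thinning, Isg15 was found in 13.3% (7.93 to 20.4) of day 1 and 3.52% (1.53 to 6.83) of day 3 neutrophils, against 2.67% and 2.36% of all other barcodes.

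Interferons act through factors that bind the interferon-stimulated response element, whose core was searched here as a pair of GAAA separated by any 2 bases, on either strand (a pair of TTTC where it lies on the other strand), with overlapping matches counted apart. Promoters, from 250 bases before to 50 after a gene's start, were taken from RefSeq on GRCm38.p6, and 20 of the 24 interferon genes had one in the table. A match was found in 11 of these 20 genes, and in 9 of the 14 with a promoter among the 17 that were at least 2-fold lower, while 3.99% of 27025 genes and 3.44% of 32851 promoters held one. The 4 promoters printed here belong to genes whose values are given above or in the named list, and capitals mark the matches. Ifit1 lies at chr19:34640639-34640938, plus strand, Ifit3 at chr19:34583279-34583578, plus strand, Rsad2 at chr12:26456403-26456702, minus strand, and Isg15 at chr4:156200769-156201068, minus strand.
Ifit1: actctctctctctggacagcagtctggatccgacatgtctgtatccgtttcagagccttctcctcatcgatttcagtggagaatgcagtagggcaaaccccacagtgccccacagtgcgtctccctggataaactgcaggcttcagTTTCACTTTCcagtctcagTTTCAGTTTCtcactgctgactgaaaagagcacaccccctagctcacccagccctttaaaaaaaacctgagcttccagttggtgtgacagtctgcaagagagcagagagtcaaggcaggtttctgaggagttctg
Ifit3: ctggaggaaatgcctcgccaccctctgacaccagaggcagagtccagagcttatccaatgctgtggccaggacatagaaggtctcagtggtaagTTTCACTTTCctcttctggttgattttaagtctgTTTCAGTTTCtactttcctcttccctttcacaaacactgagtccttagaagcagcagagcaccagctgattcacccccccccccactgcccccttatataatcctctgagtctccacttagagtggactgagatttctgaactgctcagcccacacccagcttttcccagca
Rsad2: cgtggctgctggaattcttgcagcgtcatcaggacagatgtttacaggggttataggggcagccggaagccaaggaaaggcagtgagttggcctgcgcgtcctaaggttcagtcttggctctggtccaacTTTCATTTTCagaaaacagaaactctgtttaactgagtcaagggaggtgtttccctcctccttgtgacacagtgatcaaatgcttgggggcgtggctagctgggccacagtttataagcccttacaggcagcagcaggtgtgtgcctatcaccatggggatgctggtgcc
Isg15: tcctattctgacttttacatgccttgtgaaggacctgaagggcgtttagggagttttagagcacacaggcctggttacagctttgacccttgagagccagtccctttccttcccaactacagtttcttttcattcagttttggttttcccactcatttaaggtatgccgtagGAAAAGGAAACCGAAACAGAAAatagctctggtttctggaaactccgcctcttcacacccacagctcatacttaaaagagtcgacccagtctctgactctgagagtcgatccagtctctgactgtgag
In Ifit1 the 2 matches began at -104 and -85 relative to the start, in Ifit3 at -156 and -122, in Rsad2 the 1 match at -120, and in Isg15 the 3 overlapping matches at -78, -72 and -66. A match describes the letters only. Ifit3 and Ifit3b are near-identical copies, so the split of counts between them is uncertain.

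**Figure D4:**
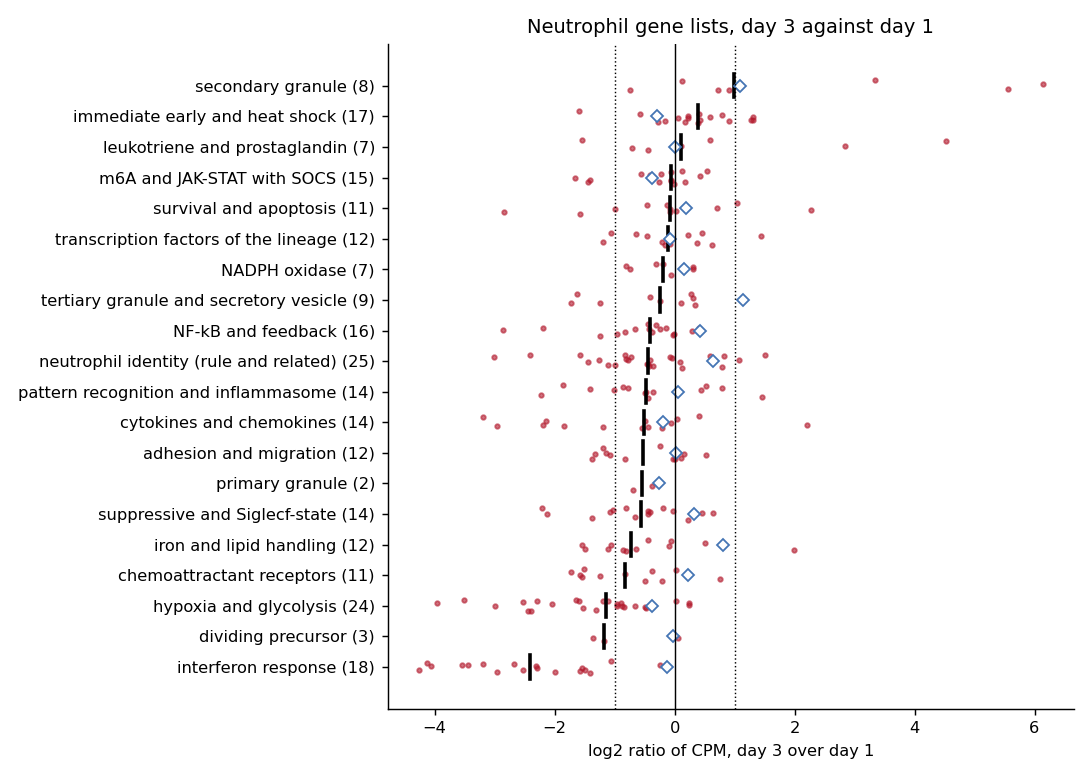
Log2 ratio of CPM in neutrophils, day 3 over day 1, for each measured gene (red points) of 20 gene lists, with the list median (black line), the median of the same genes in all other barcodes (blue diamond), and 2-fold either way (dotted). The interferon list has the lowest median, -2.42, and its diamond stands at -0.13; the number of measured genes is in brackets.

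Genes of hypoxia and glycolysis, the pathway by which neutrophils make most of their energy, had 24 measured members. Of these 13 were at least 2-fold lower at day 3 (13.5% of all genes were) and 0 at least 2-fold higher. The median log2 ratio was -1.15 against -0.38 in the other barcodes. Tpi1, a glycolytic isomerase, stood at 0 CPM in sham, 304 at day 1, 38.1 at day 3, 361 at day 7 and 318 at day 14. The other 3 injured libraries stood close together above day 3. Slc2a1, the glucose transporter GLUT1, stood at 0 CPM in sham, 378 at day 1, 65.8 at day 3, 133 at day 7 and 43.4 at day 14, highest at day 1. The prolyl hydroxylase gene P4ha1 and the thiol oxidase gene Ero1l, both known hypoxia targets, had log2 ratios of -3.96 (interval -6.34 to -2.24) and -3.51 (interval -4.92 to -2.34). Gapdh stood at 1364 CPM at day 1 and 551 at day 3 in neutrophils and at 1046 and 1106 CPM in the other barcodes, where the libraries were close. Hif1a, the oxygen-regulated factor itself, was at 311 CPM at day 1 and 169.7 at day 3 and did not reach 2-fold. The list's median lay between -1.44 and -1.11 over the alternative settings, and stood at -1.34 among neutrophils with under 1% astrocyte and oligodendrocyte marker UMIs.

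Cytokine and chemokine genes had 14 measured members, with a median log2 ratio of -0.52. Of these 6 were at least 2-fold lower at day 3 (13.5% of all genes were) and 1, Cxcl1, at least 2-fold higher. The most abundant was Cxcl2 (MIP-2), the ligand of Cxcr2 (chr5:90903871-90905938, plus strand), at 2629.6 CPM in sham, 18379 at day 1, 13033 at day 3, 5263 at day 7 and 4778 at day 14. Its level was highest at day 1 and lower at each later day sampled up to day 7, with days 7 and 14 overlapping. A UMI was present in 122 of 128 day 1 and 187 of 227 day 3 neutrophils, and in 7 of 22 and 17 of 32 at days 7 and 14. Il1b, which encodes interleukin 1 beta (chr2:129364570-129371139, minus strand), stood at 3757 CPM in sham, 6782 at day 1, 5001 at day 3, 2546 at day 7 and 6283 at day 14. Days 1 and 14 were highest, with overlapping intervals, and day 7 lowest of the injured libraries. In the other barcodes Cxcl2 and Il1b stood far lower, at 142 and 85.8 CPM at day 1 and 408 and 129 CPM at day 3.

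Il1rn, the antagonist of the interleukin 1 receptor, stood at 0 CPM in sham, 1020.0 at day 1, 132 at day 3, 228 at day 7 and 984 at day 14. Days 1 and 14 were again the high libraries, and the day 3 over day 1 log2 ratio was -2.95 (interval -3.51 to -2.43), beside -2.71 in the other barcodes. Another family member, Il1f9 (interleukin 36 gamma), stood at 376 CPM in sham, 615 at day 1, 76.2 at day 3, 285 at day 7 and 1173 at day 14, also with days 1 and 14 above day 3. Cxcl3, a further Cxcr2 ligand, stood at 1446 CPM at day 1 and 315 at day 3, and Ccl4, Ccl6, Cxcl10 and the angiogenic factor Vegfa had log2 ratios of -1.84, -2.14, -3.19 and -1.20. Ccl3, the macrophage inflammatory protein MIP-1 alpha, and Tnf did not reach 2-fold, at 2060.2 CPM at day 1 and 1773 at day 3 and 499.8 CPM at day 1 and 481 at day 3 respectively. The 54 day 3 UMIs of Cxcl1 came from 10 cells, and 5 cells held most of the day 1 UMIs of Cxcl10.

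Receptors for chemoattractants had 11 measured members, with a median log2 ratio of -0.83. Of these 5 were at least 2-fold lower at day 3 (Cxcr2, Fpr1, Fpr2, Ltb4r1 and Ptafr), against 13.5% of all genes, and 0 at least 2-fold higher. Cxcr2 was part of the rule, so its place among them is no finding. Fpr1, which senses bacterial formyl peptides, stood at 0 CPM in sham, 378 at day 1, 114 at day 3, 114 at day 7 and 275 at day 14, and Ptafr, the receptor of platelet-activating factor, at 376 CPM in sham, 669 at day 1, 236 at day 3, 399 at day 7 and 927 at day 14. In both, days 1 and 14 were above day 3 without overlap of intervals. Cxcr4, the receptor that retains neutrophils in marrow and is known to be raised on ageing cells, ran the other way at 376 CPM in sham, 486 at day 1, 824 at day 3, 304 at day 7 and 854 at day 14. Its day 3 over day 1 log2 ratio was 0.76 (interval 0.38 to 1.16), under 2-fold, and the days 3 and 14 intervals overlapped. C5ar1, the complement C5a receptor, stood at 507 CPM at day 1 and 513 at day 3, nearly the same.

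Adhesion genes had 12 measured members, of which 5 were at least 2-fold lower at day 3 (Selplg, Itgb1, Cd44 and Cd9 were 4 of these) and 0 at least 2-fold higher. The list's median log2 ratio was -0.53, and 13.5% of all genes were at least 2-fold lower. Cd44, a hyaluronan receptor, stood at 0 CPM in sham, 838 at day 1, 398 at day 3, 437 at day 7 and 854 at day 14, with days 1 and 14 above day 3 and the day 3 and day 7 intervals overlapping, beside a log2 ratio of -1.18 in the other barcodes against -1.07 in neutrophils. The beta 2 integrin genes Itgb2 and Itgam, which hold neutrophils to vessel walls, had log2 ratios of 0.10 (interval -0.51 to 0.73) and -0.24 (interval -0.69 to 0.22), both spanning 0.

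Sensing and signalling genes were mixed. Of 14 measured genes of pattern recognition and the inflammasome, 4 (Tlr4, Clec7a, Nlrp3 and Casp4) were at least 2-fold lower at day 3, against 13.5% of all genes. The inflammasome adaptor Pycard was at least 2-fold higher, and the list's median log2 ratio was -0.48. Clec7a (dectin-1) stood at 376 CPM in sham, 513 at day 1, 142 at day 3, 779 at day 7 and 767 at day 14, with day 3 the lowest injured library. Of 16 measured genes of NF-kB and its feedback 3 were at least 2-fold lower and 0 higher with a median of -0.40, a share of lower genes near the 13.5% of all genes. Nfkbia, the inhibitor that NF-kB induces, stood at 2614 CPM at day 1 and 2587 at day 3. Among 11 measured survival and apoptosis genes 2 were at least 2-fold higher, a share near the 17.5% of all genes. At least 2-fold lower were 3 (13.5% of all genes were), among them Bcl2a1b, whose near-identical copies make its count uncertain. The pro-death gene Pmaip1 (Noxa) stood at 67.5 CPM at day 1 and 326 at day 3 with a log2 ratio of 2.27 (interval 1.33 to 3.38). Mcl1, the survival factor neutrophils depend on, stood at 2594 CPM at day 1 and 2372 at day 3. Immediate early and heat shock genes had 17 measured members, with Fos, Nr4a1 and Dnajb1 at least 2-fold higher and Hspa1a at least 2-fold lower and a median log2 ratio of 0.39, a share of higher genes near the 17.5% of all genes. Fos stood at 1878 CPM in sham, 1452 at day 1, 3609 at day 3, 2489 at day 7 and 1404 at day 14, and in the other barcodes its day 3 over day 1 log2 ratio was -0.35 against 1.31 in neutrophils.

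Lipid mediators and metabolic genes completed the lists. Of 7 measured leukotriene and prostaglandin genes, Ltc4s (leukotriene C4 synthase) and Ptgs1 (cyclooxygenase 1) were at least 2-fold higher at day 3 (17.5% of all genes were). They stood at 6.75 CPM at day 1 and 156 at day 3 and 27.0 CPM at day 1 and 194 at day 3. The leukotriene B4 receptor gene Ltb4r1 was at least 2-fold lower. The list's median of 0.10 turned below 0 in 7 of 15 alternative settings, down to -0.55. Ptgs2, the inducible cyclooxygenase, stood at 0 CPM in sham, 749.8 at day 1, 551 at day 3, 190.0 at day 7 and 782 at day 14. Of 12 measured iron and lipid genes, Acsl1, which activates fatty acids, was at least 2-fold higher and Hmox1, Slc11a1, Dgat2 and Dgat1 were lower (13.5% of all genes were). The median of -0.72 turned to 0.19 with at least 1000 UMIs. Of 14 measured genes of suppressive and Siglecf-type states, Arg2, Cd274 (PD-L1), Nos2, Spp1 and Cstb were at least 2-fold lower (13.5% of all genes were). The list median was -0.55, and Siglecf itself had 3, 6, 5 and 10 UMIs at days 1, 3, 7 and 14. Acod1, which makes itaconate, stood at 1127 CPM in sham, 1027 at day 1, 194 at day 3, 304 at day 7 and 1389.8 at day 14, again with days 1 and 14 above day 3. Of 12 measured lineage transcription factors, 1 was at least 2-fold higher and Bhlhe40 and Maff at least 2-fold lower, a share near the 13.5% of all genes. The list's median of -0.12 turned to 0.17 with at least 1000 UMIs. Cebpb, a driver of granulocyte genes, stood at 2992 CPM at day 1 and 3893 at day 3.

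The series was built around the m6A eraser Alkbh5 and the cytokine signalling inhibitor Socs3 in microglia and macrophages, so both were read in neutrophils. Alkbh5 had 20 UMIs at day 1 and 44 at day 3 and stood at 0 CPM in sham, 135 at day 1, 152 at day 3, 38.0 at day 7 and 261 at day 14. The intervals of days 1 and 3 overlapped, and the log2 ratio was 0.17 (interval -0.62 to 1.01). Socs3 stood at 0 CPM in sham, 419 at day 1, 609.6 at day 3, 475 at day 7 and 72.4 at day 14. Day 14 was the lowest injured library, at 5 UMIs, and the day 3 over day 1 log2 ratio of 0.54 (interval 0.12 to 0.98) was under 2-fold, beside -0.74 in the other barcodes. Of 27 genes of the m6A machinery and JAK-STAT signalling 15 were measured, with a median log2 ratio of -0.06. At least 2-fold lower were 3 (13.5% of all genes were), among them the rule gene Csf3r and Il10ra, and 0 were higher. The eraser Fto and the writer Mettl3 had at most 11 UMIs in a library and were not measured.

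Neutrophils of the same library were not uniform. At day 3 the 29 cells with at least 10% S100 UMIs held Wfdc21, a neutrophil whey acidic protein, at 3266 CPM and Ngp at 3196 CPM, and the 61 cells between 1% and 2% held 735 and 0 CPM. Other genes were closer, with Il1r2 at 2571 and 2447 CPM, Cxcl2 at 12855 and 10485 CPM and Chil3 at 3150 and 4134 CPM in the 2 sets. The high and low S100 cells of day 3 thus held similar Il1r2 and very different Retnlg. Both were among the genes through which a barcode could enter, so these levels are in part set by the rule. In the 61 low S100 cells Il1r2 had 203 UMIs, against 35 of Retnlg, 34 of Csf3r, 25 of Cxcr2 and 47 of Mmp9. The 30 day 3 neutrophils without a Chil3 UMI held 7865 CPM of Retnlg against 1939 CPM in the 197 with one, and 2656 against 3185 CPM of Il1r2. S100 content, Il1r2 and Retnlg were all part of the rule, so these splits are descriptions.

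Days 7 and 14 had 22 and 32 neutrophils and give values only. Their barcodes held more UMIs, as did the other barcodes of those libraries. Their levels of Csf3r, 1881 CPM (1529 to 2290.1) and 1375 CPM (1113 to 1681), were at or above day 1, 1310.4 CPM (1132 to 1508). Csf3r was a gene of the rule, so these levels are a description. The antiproteinase Slpi stood at 2254 CPM in sham, 1331 at day 1, 759 at day 3, 893 at day 7 and 4560.4 at day 14, highest at day 14 of the injured libraries. Day 14 also had the highest Fth1, the ferritin heavy chain, at 37612 CPM (36180.0 to 39087) against 16047 CPM (15588 to 16515) at day 3, and the lowest Mt1, a metallothionein, at 145 CPM (69.4 to 266) against 5039 CPM (4784 to 5305). In the other barcodes Mt1 was 15797 CPM at day 3 and 768 CPM at day 14, so the direction was shared. Microglia and macrophage markers summed to 10488 CPM in day 7 and 4821 CPM in day 14 neutrophils, against 3013 and 3831 CPM at days 1 and 3, with C1qa at 0 by the rule, and their part in these levels was not tested. Of barcodes that met the S100 and marker steps, 24 of 46 at day 7 and 28 of 60 at day 14 had a C1qa UMI and were left out, against 36 of 263 at day 3.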

How the data were processed

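Each of the 5 libraries came as a matrix of UMI counts over 55450 genes, deposited by the authors as raw counts from Cell Ranger 4.0.0, per the file headers. GRCm38/mm10 is the build in the submitters' processing notes, which list Seurat 3.2.0 and STAR 2.5.37 besides. Neutrophil barcodes were taken by the rule given at the start, and UMIs were summed over them in each library and divided by the sum, times 1e+06. Intervals are exact Poisson for a level, conditional binomial for a ratio and Clopper-Pearson for a share. A gene was measured at a mean of at least 50 CPM and at least 20 UMIs, and the floor for a gene at 0 was 3 UMIs in a library. Shares of cells with a UMI were thinned to 500 UMIs per barcode. Doublets were called with Scrublet (scanpy 1.11.5) and kept. All other kept barcodes of a library gave the background for such shares. Gene positions are from GRCm38 annotation, and promoters from RefSeq on GRCm38.p6.

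The members, the 20 gene lists and the comparisons were chosen with earlier results of these data known. The genes named are the rule genes, up to 4 list members with the largest ratios of at least 100 CPM besides textbook ligands, receptors and regulators, and the 12 highest and 12 lowest ratios among genes of at least 200 CPM and 30 UMIs. Some genes these rules name are not reported here. The log2 ratio and its interval were tested on simulated Poisson counts. Unevenness of UMIs over cells, the rule and the shares were not part of that test. Python 3.11.15, numpy 2.4.6, scipy 1.17.1, pandas 2.3.3, matplotlib 3.10.9, R 4.3.3 and edgeR 4.0.16 (TMM scaling only) were used. Alternatives varied the filters, the rule, doublets and scaling.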

Additional observations from a re-analysis of the deposited data

How the results depend on the processing

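No paired analysis was possible because each group is a single library. With at least 1000 UMIs the share was 0% in sham, 0.456% at day 1 and 1.13% at day 3. With S100a8 plus S100a9 at least 2% it was 1.68% at day 3, and at 5% it was 0.740% at day 1, 0.729% at day 3, which puts day 3 below day 1, and 0.167% at day 14. With at most 1 UMI of C1qa and Cd3e day 7 stood at 0.283%, and with at least 2 of the 5 genes day 3 stood at 1.74%. Added after seeing the data, an S100 limit of 0.5% gave 2.89% at day 3, and leaving out barcodes with at least 1% brain cell marker UMIs gave 0.756% at day 1. Genes at least 2-fold higher and lower at day 3 numbered 246 and 211 of 1365 measured with at least 5% S100, and 1873 and 3993 of 13913 with no filter on CPM, against 527 and 406 of 3010. The median of the dividing precursor list, over 3 measured genes in the main setting, turned to 0.036 with at least 5% S100 and to 0.46 with at least 0.25% S100 and 2 of the 5 genes. The cause was not tested. The interferon list lay between -3.07 and -2.11 and Chil3 between 4.84 and 5.93 over 15 alternatives, while the leukotriene list was below 0 in 7 of them. Of 153 named genes under 15 alternatives, 2076 values moved by less than their interval and 217 by more. Alternatives that changed only the filter on CPM left every gene's ratio as it was. Their values are among the 2076 by construction. Depth limits sham, day 7 and day 14, where 1 UMI was worth 376, 19.0 and 14.5 CPM.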
